A study of Mus musculus with 249 samples.

Results

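The unstained libraries of a propidium iodide test were 20 of the 249 genome architecture mapping (GAM) libraries in the table, and they were chosen by their sample titles alone. The titles name an experiment on propidium iodide staining and freezing and call these libraries unstained, and whether they were frozen is not given in the sources used here. In GAM, frozen cells are cut into cryosections, slices of nuclei (nuclear profiles) are collected by laser microdissection, and the DNA in each tube is amplified and sequenced. All libraries came from the 46C line of mouse embryonic stem cells, of strain 129/Ola, which carries a Sox1-GFP knock-in, so a single cell line stands behind every value. Propidium iodide, a dye that intercalates into DNA, was not applied to these sections by their titles, and stained libraries of the test were not analysed here. Sections were 220 nm thick, 4 profiles were cut into each tube, and whole genome amplification ended with 25 PCR cycles. Plate, row and column were read here from the library code in each title, which does not name them as such. By this reading, the 20 libraries occupied 3 columns of a single plate, with 7 in column 1, 8 in column 2 and 5 in column 3. Libraries are named here by their well. Nothing in the labels says that the libraries came from separate cultures, so every p-value measures only the spread between libraries, which may be technical.

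GAM infers contacts from co-segregation, the rate at which a pair of loci turns up in one slice, which falls as their distance in the nucleus grows. A thin slice passes through only some chromosome territories, the compact volumes that single chromosomes occupy in interphase, and it takes only a part of each. A chromosome may therefore be nearly missing from one library and amply sampled in the next.

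Each window of 40 kb was either positive or not in each library, and the table lists 68162 windows, of which 61816 lie on autosomes. No 2 libraries held identical calls. The depth of sequencing is unknown, because the table keeps no reads, and a value of 0 can mean absence or too few reads. For reference, the unstained libraries were set against the 11 unfrozen libraries of an incubation freezing test, whose protocol text is identical, with the freezing of the unstained libraries unknown. They were also set against 10 libraries of protocol A of a reagent volume test (the same text plus frozen storage of the caps), 18 unstained libraries of an eosin test (overnight freezing and other reagent volumes) and all 229 other libraries. All these references were also 46C cells with 4 profiles cut per tube. The 229 other libraries are a mixed group, since beside the named references they include sections stained with cresyl violet, amplification with 23 or 20 PCR cycles, other proteinase K and reagent volumes, large and small kits, freezing at several steps, the unstained arm of a SYBR Gold test and a full collection of 54 libraries. Each of the 3 named references lay on another plate by the same reading of the codes, so test, plate and collection cannot be told apart.

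A small number of windows was positive in every library, and reference sequence from some of them is shown here. Of the autosomal windows, 6 were positive in all 20 unstained libraries, and so was 1 window of the X chromosome, chrX:139880001-139920000, which overlaps no protein-coding gene. The same windows were nearly always positive elsewhere, in 215 to 229 of the 229 other libraries. The 4 stretches shown were chosen for tandem repeats, that is, copies of one unit in a row. Such repeats also occur elsewhere, and in 124 autosomal windows taken at regular steps along the table they covered a median of 281.5 bases and at most 1702. Only the first stretch comes from a window above that range. The table keeps no reads, so it does not show whether reads fell on these stretches. Each stretch of 240 bases was read from the mm9 assembly, forward strand, and capitals mark bases that are identical one repeat period further along.
chr9:3003337-3003576: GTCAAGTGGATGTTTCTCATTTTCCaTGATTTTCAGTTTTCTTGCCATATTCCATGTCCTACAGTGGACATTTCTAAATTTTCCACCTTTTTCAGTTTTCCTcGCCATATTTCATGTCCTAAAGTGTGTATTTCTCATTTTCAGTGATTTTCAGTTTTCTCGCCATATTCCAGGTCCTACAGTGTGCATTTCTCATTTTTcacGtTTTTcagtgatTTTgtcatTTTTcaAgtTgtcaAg
chr9:35112759-35112998: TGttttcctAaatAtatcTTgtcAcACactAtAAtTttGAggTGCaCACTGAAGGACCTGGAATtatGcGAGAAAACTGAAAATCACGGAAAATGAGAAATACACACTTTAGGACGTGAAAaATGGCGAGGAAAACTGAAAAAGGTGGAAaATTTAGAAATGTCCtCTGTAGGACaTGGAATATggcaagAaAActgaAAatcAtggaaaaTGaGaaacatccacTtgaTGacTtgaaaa
chr2:98505060-98505299: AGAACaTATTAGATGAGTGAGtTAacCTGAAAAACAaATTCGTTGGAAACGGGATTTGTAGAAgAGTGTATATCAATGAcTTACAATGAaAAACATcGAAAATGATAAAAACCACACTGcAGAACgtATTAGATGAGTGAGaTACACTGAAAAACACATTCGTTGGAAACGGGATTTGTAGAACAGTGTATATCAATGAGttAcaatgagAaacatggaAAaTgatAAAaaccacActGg
chr11:3051790-3052029: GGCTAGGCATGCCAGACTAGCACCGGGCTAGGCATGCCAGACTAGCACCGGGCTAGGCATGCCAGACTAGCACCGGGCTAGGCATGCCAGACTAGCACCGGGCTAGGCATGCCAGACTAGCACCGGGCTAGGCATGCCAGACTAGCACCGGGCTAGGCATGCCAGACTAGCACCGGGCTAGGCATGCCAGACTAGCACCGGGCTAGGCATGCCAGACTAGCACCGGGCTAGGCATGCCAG

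The first stretch comes from chr9:3000001-3040000, the first sequenced window of that chromosome, in which 73.7% of the bases lay in repeats with a period of 234 bases. This is the mouse major satellite, which forms the pericentromeric heterochromatin of mouse chromosomes. The window also overlaps 12 predicted genes of the annotation, among them Gm10715 and Gm11168. The second stretch lies in chr9:35080001-35120000, a window that overlaps Rpusd4 and Gm5614, and the same period of 234 bases covered only 290 of its bases. The 240 bases shown were 67.1% identical to the next copy, below the 70% asked of 200 bases in the search for repeats. The third stretch, from chr2:98480001-98520000 with the predicted genes Gm10800 and Gm10801, had a period of 120 bases, the length of the mouse minor satellite of the centromere, and repeats covered 647 bases of that window. The fourth stretch, from chr11:3040001-3080000 within Sfi1, which encodes a centrin-binding protein, repeated a unit of 25 bases and was identical to the next copy at every base, in a window with 496 bases in such repeats. The remaining 2 autosomal windows were chr11:3080001-3120000, over Drg1, Eif4enif1 and Sfi1, with 501 bases in repeats of period 40 that are not shown, and chr6:103560001-103600000, over Chl1, which encodes a neural cell adhesion molecule. No repeat with a period of 20 to 400 bases was found in the chromosome 6 window, at 70% identity over 200 bases.

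Words of 16 bases from the 234-base array covered at least 100 bases in 17 autosomal windows, which were positive in a median of 8 of the 20 libraries, with a range of 3 to 20. Other autosomal windows were positive in a median of 5 libraries. At least 500 bases were covered in 5 windows, positive in 4, 12, 19, 20 and 20 libraries, among them the window from which the words were taken. The one at 4 libraries was chr9:3040001-3080000, which shared 8286 bases with the array, and the one at 12 was chr4:3000001-3040000, which shared 882. The chromosome 2 window shared 1488. Words from the repeats of the chromosome 2 window covered at least 100 bases in 11 autosomal windows, positive in a median of 11 libraries (range 3 to 20), and at least 500 bases in 3, positive in 19 or 20 libraries, among them again the window of origin. Both sets of words overlap, since the first window of chromosome 9 shared 7799 bases with this set. The chromosome 6 window without a tandem repeat shared 16 bases with the first set and 233 with this second set. Of the 12 autosomal windows positive in 16 or more libraries, 3 held at least 500 such bases. How many reads from satellite copies outside the assembly fell on these windows was not tested.

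Coverage, the percent of all windows that were positive in a library, ranged from 8.58% (well D1) over a median of 20.98% to 42.4% (well B2), with a mean of 22.1% ± 8.48 (SD, n = 20). The neighbour share, the percent of positive windows with a positive window directly beside them, ranged from 82.2% (D1) over a median of 90.6% to 93.5% (C3), with a mean of 89.9% ± 2.90 (SD, n = 20). Positive windows of these libraries thus seldom stood alone, and windows with no positive neighbour on the same autosome made up 9.97% ± 2.91 of a library's autosomal calls (SD, n = 20). In well B2, 28884 windows were positive, and in well D1 the number was 5849.

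Coverage and neighbour share rose together across the 20 libraries, with a Pearson r of 0.56 (permutation p = 0.00978) and a Spearman rho of 0.65 (permutation p = 0.00227). With wells B2 and A3 left out, those farthest from the median coverage, r was 0.61 (permutation p = 0.00703, n = 18). A library with more positive windows has more neighbours by placement alone. When the share expected from windows placed at random was subtracted, r turned to -0.98. The subtracted share is computed from coverage and the neighbour share varied little. This r was therefore largely set by the subtraction and does not describe the relation.

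Both measures differed between plate columns, with calls that depended on single libraries. Coverage averaged 15.7% ± 5.99 in column 1 (SD, n = 7, range 8.58 to 28.1), 24.5% ± 8.55 in column 2 (SD, n = 8, range 15.4 to 42.4) and 27.1% ± 6.62 in column 3 (SD, n = 5, range 19.8 to 37.1). Of the 7 libraries with the lowest coverage, 6 were in column 1 and the other was E2 of column 2, while B1 was the only library of column 1 above 20%. The exact permutation test of F gave p = 0.0283 (adjusted p = 0.0425 over 3 measures). The neighbour share averaged 87.8% in column 1, 90.4% in column 2 and 92.0% in column 3 (exact permutation p = 0.0267, adjusted p = 0.0425). The excess of positive windows at 1 Mb from a positive window gave an exact permutation p of 0.445. The ranges of the columns overlapped in each measure. Leaving out any one of 15 libraries took the adjusted p past 0.05 for coverage, and the same held for the neighbour share with another set of 15, and it reached 0.102 at most for each. The authors' updated protocol collects profiles in strips of 8 caps, which then close the wells of a plate. Whether the wells of a column here shared a strip, a section or a day is not given in the sources used here.

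**Figure D1:**
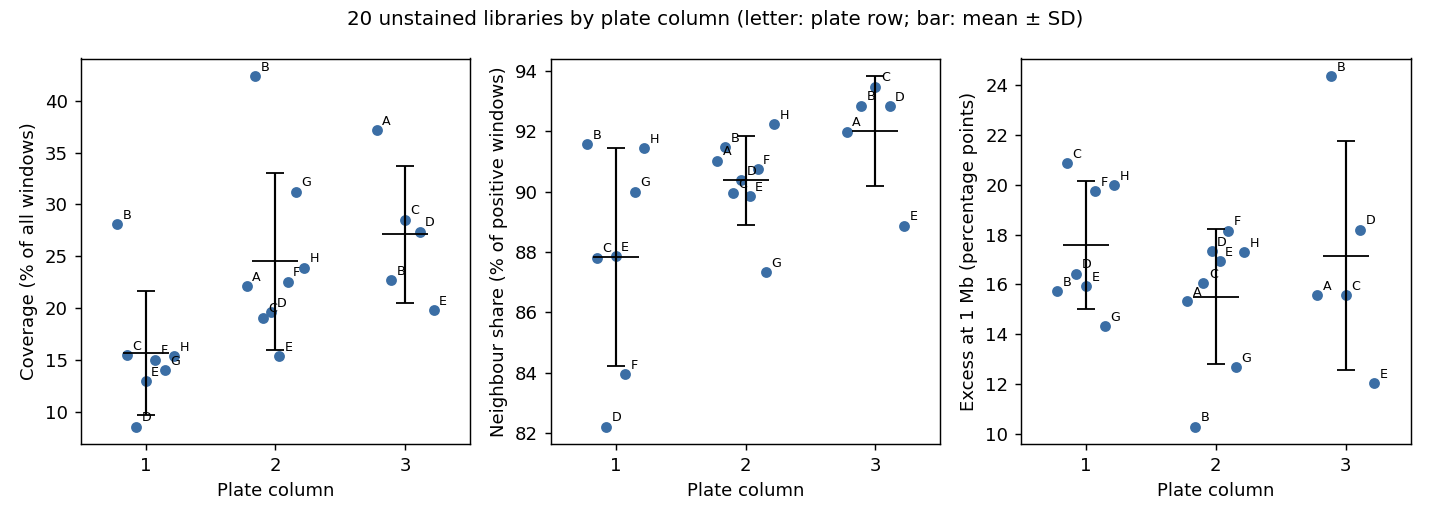
Coverage, neighbour share and excess at 1 Mb of the 20 unstained libraries by plate column, with plate row letters beside the points and bars for mean ± SD. Column 1 averages 15.7% coverage and column 3 averages 27.1%, with overlapping ranges.

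Compared with the references, the unstained libraries had higher coverage than protocol A by 7.06 points ± 2.98 (SE, adjusted p = 0.0413 by permutation over 12 tests), than the eosin arm by 5.42 ± 2.43 (adjusted permutation p = 0.0413) and than all other libraries by 4.20 ± 1.96 (adjusted permutation p = 0.0298). Against the unfrozen libraries, which share the protocol text but may differ in freezing, the difference of 4.45 points ± 3.49 did not pass (adjusted permutation p = 0.196). The unfrozen libraries ranged from 3.56% to 36.5%. By medians the 3 differences were 6.18, 4.46 and 4.15 points and none passed (adjusted permutation p = 0.138, 0.138 and 0.0675). Of the 20 unstained libraries, 13 lay above the mean of the other 229 libraries. Each of the 3 calls on coverage was lost without A3, B1, B2, C3 or G2, wells with coverage of 28.1% to 42.4%, and those against protocol A and the eosin arm also without D3, with adjusted p up to 0.0889 over all of these.

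The neighbour share was above all 4 references. It exceeded that of the unfrozen libraries by 6.26 points ± 1.72 (SE, adjusted permutation p = 0.00066), that of protocol A by 19.9 ± 4.57, that of the eosin arm by 14.04 ± 2.66 (both adjusted permutation p = 6e-05) and that of all other libraries by 8.998 ± 1.02 (adjusted permutation p = 0.00392). All 20 libraries lay above the mean of the other 229, which ranged from 31.3% to 93.3%. With the straight-line relation to log2 coverage removed, a step chosen after seeing the data, the difference from the unfrozen libraries was 1.08 points (adjusted permutation p = 0.630), while those from the other 3 references still passed. With the share expected at random subtracted, none of the 4 passed, at -1.05 points against the unfrozen libraries (adjusted permutation p = 0.812), 8.62 against protocol A (0.05998), 5.60 against the eosin arm (0.1103) and 2.39 against all other libraries (0.378). That subtracted share rises with coverage, whose mean was higher here than in each reference, so the step also takes up the difference in coverage. The unfrozen libraries had a mean neighbour share of 83.6% ± 5.28 (SD, n = 11).

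Beyond the adjacent window, the 20 libraries held more positive windows near a positive window than their chromosomes' own average gives. In each library, the percent positive was taken among autosomal windows at a set distance from a positive window. This excess is that percent minus the percent expected from the percent positive of the same chromosomes. It averaged 43.8 points ± 5.94 at 40 kb, 30.9 ± 4.61 at 200 kb, 16.6 ± 3.18 at 1 Mb and 4.01 ± 2.44 at 5 Mb (SD, n = 20). All 20 libraries had an excess above 0 at 5 Mb, 18 had one at 10 Mb and 12 at 20 Mb, where the mean was 0.46 ± 1.47. At 40 Mb it was -0.03 ± 1.31. At 1 Mb, values ranged from 10.3 (B2) over a median of 16.2 to 24.4 points (B3).

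The excess at 1 Mb was 2.73 points ± 1.33 above that of the unfrozen libraries (SE, adjusted permutation p = 0.0436), 6.72 ± 1.19 above protocol A (8e-05 by the same test), 3.67 ± 0.96 above the eosin arm (0.00108) and 2.29 ± 0.77 above all other libraries (0.0298). At 5 Mb none of the 4 differences passed, and they ran from 0.55 to 1.79 points. The difference from the unfrozen libraries passed the threshold no longer when any one of 10 libraries was left out, and that from all other libraries when B3 was left out (at most 0.0653 in adjusted p). The difference from all other libraries was also lost by medians (1.54 points, adjusted permutation p = 0.13) and with coverage residuals (1.84 points, 0.0659), and that from the unfrozen libraries with coverage residuals (2.14 points, 0.151).

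**Figure D2:**
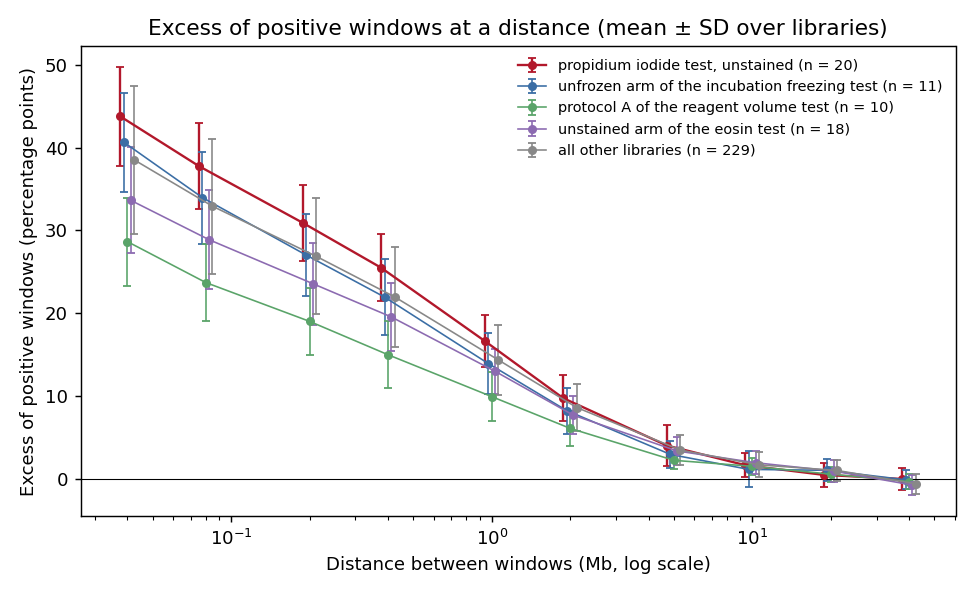
Excess of positive windows against the distance between windows (Mb, log scale), as mean ± SD over libraries in each group. The unstained libraries start at 43.8 points at 40 kb and reach 0.46 at 20 Mb, and at 1 Mb they average 16.6 points against 14.4 in all other libraries.

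Uninterrupted runs of positive autosomal windows were also measured. Runs of 1 Mb or longer held 10.1% ± 6.59 of a library's positive autosomal windows (SD, n = 20), from 0.69% in D1 to 22.6% in H2. The same share was 3.80% ± 3.76 in the unfrozen libraries and 4.48% ± 4.90 in all other libraries, as a description with no test. The median of all 73680 runs was 2 windows. The longest run, in well C3, covered 128 windows (5.12 Mb) at chr9:56640001-61760000. The next were 5.04 Mb in A3 at chr3:74400001-79440000, 4.8 Mb in B3 at chr14:57280001-62080000, 4.68 Mb in H2 at chr16:56840001-61520000 and 4.44 Mb in C3 at chr11:75960001-80400000. Each of these runs came from a different chromosome.

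Whole chromosomes came and went between libraries. Of the 380 combinations of an autosome and a library, 48 had under 5% of windows positive and 19 had over 50%, and none was at 0. Well B2 held 8 of the 19 combinations above 50%, with chromosome 1 at 69.1%, the highest value seen, and its lowest autosome, chromosome 6, was still at 28.7%. Well G1 was the most uneven, since chromosome 6 reached 44.9% while 7 autosomes were under 5% and chromosome 17 was at 0.08%. Well D1, the sparsest library, had 6 autosomes under 5%. In well D2, chromosome 11 stood at 0.10% beside 48.6% on chromosome 6. The number of autosomes under 5% averaged 2.4 ± 2.21 per library (SD, n = 20), beside 2.54 ± 2.81 in all other libraries.

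**Figure D3:**
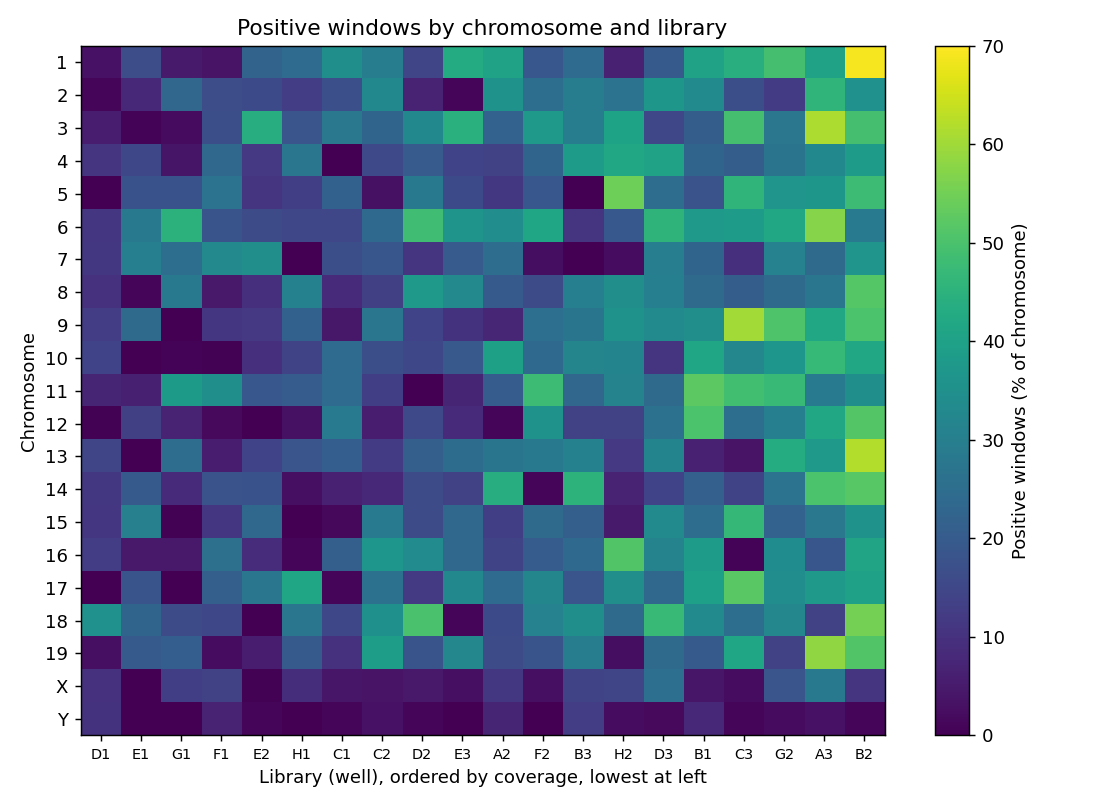
Percent of windows positive on each chromosome (rows) in each of the 20 libraries (columns, lowest coverage at left). Dark cells are chromosomes almost absent from a library, and the highest cell is chromosome 1 in B2 at 69.1%.

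Chromosome 6 was the most amply sampled autosome, with 30.6% ± 13.9 of its windows positive (SD, n = 20, range 10.9 in B3 to 57.4 in A3), and it was the only autosome that stayed above 5% in all 20 libraries. Among its genes are Nanog, a core factor of the pluripotency network, and Gapdh, a glycolytic enzyme. It lay above the other autosomes of the same library by 7.42 points ± 2.91 (SE, n = 20), in 14 of 20 libraries, which did not pass within these libraries (exact sign-flip p = 0.0199, adjusted p = 0.139 over 21 chromosomes). In the other 229 libraries the difference was -0.09 ± 0.65, and the gap of 7.51 points between both sets passed the permutation test (p = 0.00183, adjusted p = 0.0384). Taken as a percent of the level of the other autosomes, the gap was 38.6% and did not pass (adjusted permutation p = 0.1004). When 31 libraries of like protocol served as the reference (both arms of the incubation freezing test and protocol A), a choice made after seeing the data, the gap was 6.31 points (adjusted permutation p = 0.185). Without A2, A3, D2, E1, E3, F2, G1 or G2 in turn the call was lost as well, with adjusted p up to 0.108.

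The next largest gaps did not pass. Chromosome 1 was 5.57 points and chromosome 3 was 5.39 points further above the other autosomes than in the other 229 libraries, and chromosome 12 differed by -5.52 points (adjusted permutation p = 0.0882 for each). Chromosome 12 had the lowest mean of the autosomes, 18.7% ± 16.6 (SD, n = 20), and was under 5% in 5 libraries. Chromosome 8 differed from its level in the other libraries by -0.09 points.

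The sex chromosomes were positive less often. 46C cells are male, so X and Y are each present in a single copy. X had 9.73% ± 7.94 of windows positive (SD, n = 20), from 0.22% in E1 over a median of 9.59% to 28.3% in A3. It lay below the autosomes by 13.9 points ± 2.102 (SE), in 19 of 20 libraries (exact sign-flip p = 3.81e-06, adjusted p = 4.01e-05). The library that departed from this was D1, where X was at 10.1% and the autosomes at 8.72%. Y had 3.17% ± 3.78 of windows positive, also below the autosomes in 19 of 20 libraries (the same p), and 0.00% in E1, E3, G1 and H1. Of the 398 Y windows, only 66 were positive in at least 3 of the 249 libraries. The others lower the Y percent in any library, so the Y test cannot tell sampling from detectability. Over windows positive in at least 25 libraries, the Y difference was -0.80 points (adjusted p = 0.902 by the exact sign-flip test). The X difference over such windows was -12.9 points (adjusted p = 0.0004 by the same test). This filter keeps windows by how often they are positive, and its part in either value was not tested.

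A single-copy locus should be sampled at a rate set by that of the 2 copies of an autosomal one. Over windows positive in at least 1 library, autosomes stood at 24.5% and X at 10.2%, against a single-copy prediction of 13.3% computed in each library. X lay below its prediction by a mean of 3.09 points ± 1.78 (SE, n = 20), and above it in 9 of 20 libraries, which did not pass (exact sign-flip p = 0.0993, a test chosen after seeing the data). In the other 229 libraries X was 0.04 points ± 0.50 from the prediction. The difference of X from the autosomes was -4.98 points relative to that in the other libraries (adjusted permutation p = 0.0882).

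**Figure D4:**
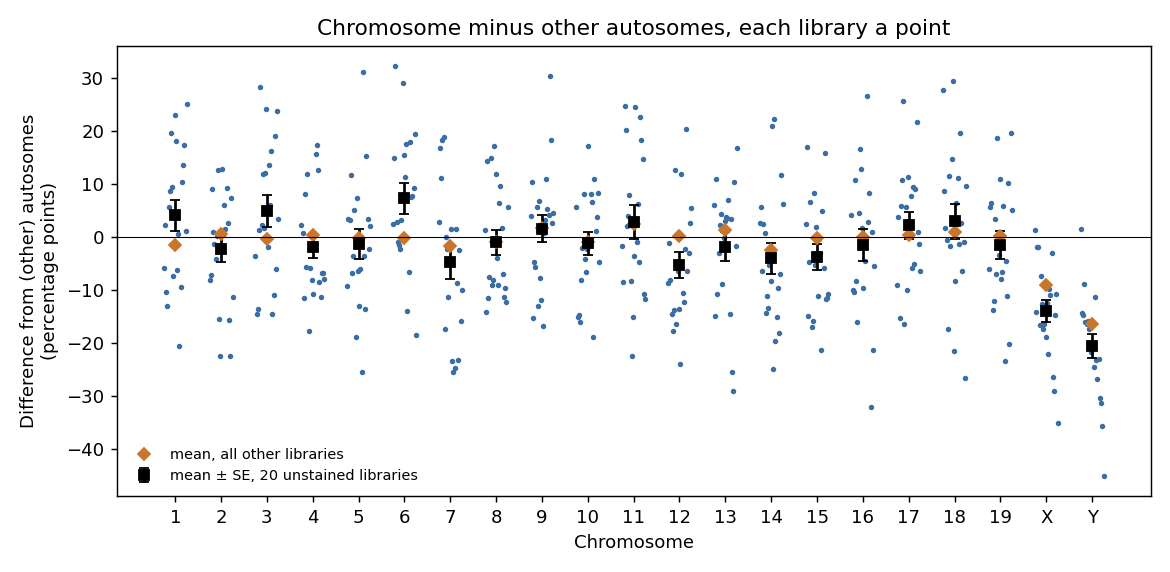
Percent positive on each chromosome minus that of the other autosomes (points: 20 unstained libraries, squares: mean ± SE, diamonds: mean of the 229 other libraries). Chromosome 6 averages 7.42 points above, X 13.9 points below.

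Across windows, each locus was positive in few libraries. Autosomal windows were positive in a median of 5 of the 20 libraries (mean 4.73 ± 2.18, SD over 61816 windows), and X windows in a median of 2. The most common value on autosomes was 5 libraries, with 11540 windows. There were 2669 autosomal windows positive in no unstained library, of which 2177 were positive in no library of the table. Of the remaining 492, 226 were positive in 25 or more of the other libraries. Only 2 autosomal windows were positive here and in no other library. Across the 59639 autosomal windows positive at least once, the number of unstained libraries correlated with the number of other libraries at r = 0.26, a description, since neighbouring windows share calls.

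**Figure D5:**
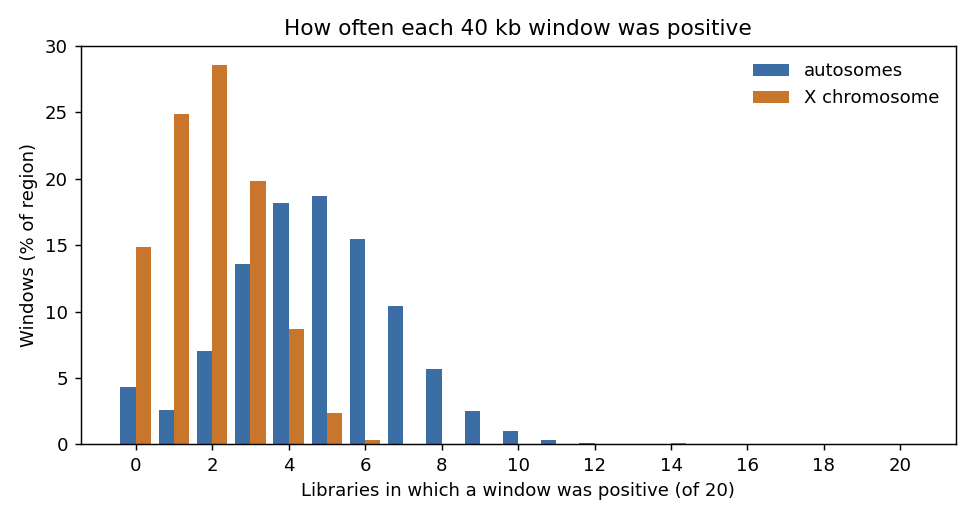
Percent of autosomal windows (blue) and X windows (orange) by the number of the 20 unstained libraries in which they were positive. Autosomal windows peak at 5 libraries and X windows at 2.

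The set sampled most of the genome within few tubes. Averaged over all possible draws, 1 library saw 23.7% of autosomal windows, 2 libraries saw 41.4%, 5 saw 72.4% and 10 saw 90.1%. With all 20 libraries, 95.7% of autosomal windows had been positive at least once. At 10 libraries the unfrozen arm reached 85.1%, protocol A 80.6% and the eosin arm 82.5%, as descriptions of these sets.

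Libraries shared slightly more windows than their chromosome contents give, in most pairs. For each of 190 pairs, the autosomal windows positive in both were divided by the number expected from the percent positive on each chromosome, and this ratio had a median of 1.05 and ranged from 0.93 to 1.21. In 59 pairs from the same plate column the median was 1.05, and in 17 pairs from adjacent wells it was 1.06.

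No single window differed from the other libraries by the adjusted test. Fisher's exact test over 63543 windows gave 0 with an adjusted p under 0.05, which is 0.0% of the windows tested, and 4304, or 6.77%, with an unadjusted p under 0.05. Stratified by coverage, which the plain test does not take into account, the unadjusted number was 3508, and again 0 windows passed after adjustment. Of the 4304, 4143 were positive more often in the unstained libraries and 161 less often, while the stratified test gave 2697 more often and 811 less often. They were unevenly spread, with 20.2% of the tested windows of chromosome 6, 15.3% of chromosome 1 and 14.6% of chromosome 3, but 1.65% of chromosome 12 and 1.27% of X. Windows in a row are positive together, so these shares count few independent events.

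The window with the lowest p was chr1:42360001-42400000, which overlaps no protein-coding gene, positive in 12 of 20 unstained and 28 of 229 other libraries (adjusted p = 0.194). The others of the lowest 4, each with an adjusted p of 0.223, lay over Sox5 (13 of 20 against 39 of 229), which encodes a transcription factor of neural and cartilage development, over Kcnq5, a potassium channel gene (12 against 33), and over Bmpr2 (14 against 49), which encodes a receptor for bone morphogenetic proteins. None of these passed the threshold.

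Detection rose with GC content. Autosomal windows positive in at least 1 of the 249 libraries were split by GC into 10 bins of equal size. In the bin with the lowest GC (mean 36.2%), 21.7% ± 8.47 were positive (SD, n = 20), in bin 5 (40.8% GC) 24.2%, in bin 9 (46.5%) 26.7% and in the highest (49.95%) 26.4% ± 10.4. The highest bin exceeded the lowest by 4.66 points ± 1.16 (SE), in 16 of 20 libraries (exact sign-flip p = 0.000454, adjusted p = 0.000454). The difference ran from -2.01 points in D1, the sparsest library, to 16.3 in B1. The other 229 libraries had a difference of 4.84 ± 0.32.

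Gene content was read over the same autosomal windows. Those that overlap a protein-coding gene were positive in 25.5% ± 9.65 (SD, n = 20, 33100 windows) and the 26539 without one in 23.3% ± 9.31. The difference of 2.19 points ± 0.41 (SE) was above 0 in 17 of 20 libraries (exact sign-flip p = 7.82e-05, adjusted p = 0.000156), and it was 2.15 ± 0.11 in the other libraries. B3, C1 and D1, which fell below 0 here, also fell below 0 for GC. Gene-rich windows have more GC, and the parts of gene content and GC in this difference cannot be told apart from these values.

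Along the chromosomes, which in the mouse have the centromere at the start, the same autosomal windows were split into 10 equal parts by position. The first part was positive in 23.4% and the last in 27.4%. The last part lay above the first by 4.02 points ± 1.91 (SE, n = 20), in 13 of 20 libraries, with a range of -8.70 to 27.9. In the other 229 libraries the difference was 0.72 ± 0.46. No test was made of this pattern, which was noticed after the data were seen, and GC also rose from 41.1% to 44.3% over these 10 parts.

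Windows at the start sites of genes were then counted. Autosomal protein-coding genes, 21418 in the annotation, were positive at the start in a median of 5 libraries, with quartiles of 4 and 6. The 4 lists of genes were read at the window that holds the start site. No member of any list had a window that passed the adjusted test, and none of the lists was tested as a set. The lists were chosen with earlier results of these data known.

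The 22 pluripotency genes were positive in a median of 5 libraries, from 1 to 10. Nanog (chr6:122657507-122664651), which sustains self-renewal, was positive in 10 of 20 libraries and in 72 of the 229 others. Dppa3, a maternal factor in the same cluster of chromosome 6, was positive in the same 10 libraries, so both genes are a single observation. Sox2 (chr3:34548927-34551383), the partner of Oct4 at many enhancers, was positive in 8 libraries. Pou5f1 (chr17:35642982-35647721), which encodes Oct4, was positive in 4. Klf4 (chr4:55540013-55545347), a reprogramming factor, was positive in 2, and Dnmt3l, a cofactor of DNA methylation, in 1.

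The 15 genes of the neural list that were found, genes with little transcription in stem cells, were positive in a median of 5 libraries. The highest was Map2, a neuronal microtubule protein listed as Mtap2 in the annotation, with 9 libraries. Pax6, a regulator of eye and forebrain, was positive in 5, and Neurod1, a factor of neuronal differentiation, in 3.

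The 12 housekeeping genes had a median of 5.5 libraries, from 3 to 10. Actb, the cytoskeletal actin gene, and Gapdh were each positive in 10 libraries. Gapdh lies on chromosome 6, like Nanog, and 8 libraries were positive for both. Eef1a1, an elongation factor of translation, was positive in 3. Beside these, the start sites of the pluripotency list were positive in a median of 54 of the 229 other libraries, the neural list in 45, the housekeeping list in 55.5 and the long genes below in 41, and all autosomal protein-coding genes in 50.

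The start sites of the 15 long neuronal genes were positive in a median of 5 libraries, from 1 to 10. Over their whole length these genes were mostly positive in part, and whether a window at 0 lay outside the slice or had too few reads cannot be told apart. Ptprd (chr4:75587142-77857865), a receptor phosphatase gene of 58 windows, had at least 1 positive window in 14 libraries and all windows positive in 0. On average 17.3% of its windows were positive in a library. Cntnap2 (chr6:45010060-47251368), which encodes a neurexin family protein and spans 57 windows, was touched in 13 libraries, with 27.9% of its windows positive. Opcml (chr9:27598360-28732995), an adhesion molecule gene of 30 windows, had the highest level of the list, 37.2%, and was positive in full in 1 library. Ctnna2, a neuronal catenin gene, was also positive in full in 1 library. The lowest was Csmd1, a complement-related membrane protein gene of 42 windows, with 15.4%.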

How the data were processed

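The table holds calls of 249 libraries in windows of 40 kb. Per the methods, the authors aligned reads to mm9 with Bowtie2 (2.1 in the submitters' processing notes), removed duplicates with Samtools and called a window positive with GAMtools, with a fixed read threshold of 4. The deposited values are 0 or 1 with no other unit, and only libraries that passed the authors' quality control are included, so depth is unknown and comparisons are conditional on passing. All columns matched a label. The members and the gene lists were chosen with earlier results of these data known.

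Groups were compared by differences of means with two-sided permutation tests (100000 resamples, smallest p 1e-05), within-library differences by exact sign-flip tests, plate columns by an exact permutation test of F, and windows positive in at least 3 libraries by Fisher's exact test. Each family was adjusted by the Benjamini-Hochberg method at 0.05. Named were autosomal windows positive in all 20 libraries, the 4 windows with the lowest p, the 5 longest runs and 4 gene lists. Genes came from GENCODE vM1, sequence and GC from NCBIM37, which is mm9 (all chromosome lengths matched). Of 65 listed genes 64 were found, with Map2 and Tfcp2l1 under older symbols, and some members are not reported here. The Fisher, sign-flip and group permutation tests were checked on simulated data, in which windows were drawn independently, unlike the real calls. The tests of F, of correlation and of stratified windows were not checked in this way. Python 3.11.15 with numpy 2.4.6 and scipy 1.17.1 was used. Alternatives left out libraries or changed window sets, scale, distance and reference.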

Additional observations from a re-analysis of the deposited data

Results flagged for a closer look

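Chromosome 6 lay further above the other autosomes in the unstained libraries than in the 229 other libraries, by 7.51 percentage points (adjusted permutation p = 0.0384), and is listed because this difference between groups passed a test of the difference itself. It did not pass with libraries of like protocol as the reference, nor as a percent of the level of the other autosomes (adjusted p = 0.1004), and whether it belongs to the plate, the collection or the cells cannot be told apart.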

How the results depend on the processing

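Depth is unknown, and 20 libraries from a single plate limit every test. No paired analysis was possible because replicate numbers only name libraries. By medians, coverage was higher by 6.18 points than protocol A, 4.46 than the eosin arm and 4.15 than all other libraries, and the excess at 1 Mb by 1.54 than all other libraries, and none passed. With the share expected at random subtracted, the neighbour share differences were -1.05 (unfrozen), 8.62 (protocol A), 5.60 (eosin) and 2.39 (all others), none past the threshold. The correlation with coverage was then -0.98, which the subtraction itself largely set, since the subtracted share is computed from coverage. With coverage residuals, the neighbour share was 1.08 and the excess 2.14 above the unfrozen libraries and the excess 1.84 above all others, and none of the 3 passed. At 5 Mb the excess differences were 1.08, 1.79, 0.66 and 0.55 in the same order, and none passed. Over windows positive in at least 25 libraries, 1 chromosome (X) passed within the set. Divided by the autosomal percent, 0 chromosomes passed against all others, chromosome 6 at 38.6% and Y reversed at 3.73%, and 0 passed against libraries of like protocol. The cause of these changes was not tested. With each library left out in turn, the coverage differences ran from 3.38 to 5.16 (unfrozen), 5.99 to 7.77 (protocol A), 4.35 to 6.13 (eosin) and 3.13 to 4.91 (all others). The excess ran from 2.32 to 3.06 (unfrozen), lost without B3, C1, D1, D2, D3, E2, F1, F2, H1 or H2, and from 1.88 to 2.62 (all others). F for plate columns ran from 3.13 to 6.72 for coverage, lost except without B1, B2, C2, E2 or E3, and from 3.06 to 5.92 for the neighbour share, lost except without B1, C2, E2, E3 or H1. Chromosomes past the threshold numbered 2 to 3 within the set (the third was chromosome 6, without B2) and 0 to 3 against all others (X joined without D1, D3 or F1, Y without D1 and chromosome 3 without D3). No direction changed for these results, for the neighbour share, or for GC, gene content and chromosomes 6, X and Y when a library was left out. The calls of the other chromosomes were rerun, the direction of their differences was not compared, and the X prediction and position were not rerun.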

Other observations

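The mitochondrial window, which is counted in coverage and in the test of single windows but in no comparison of chromosomes, was positive in 20 of 20 unstained libraries and in 227 of the 229 others. The 1780 windows of unplaced sequences were at 0 in all 20 libraries.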
